A study of Mus musculus with 12 samples.

Results

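The genes described here build ribosomes. They comprise 60 listed genes of ribosome biogenesis and rRNA processing, taken where a row of the deposited tables carried exactly 1 gene symbol and that symbol was on the list. Of the 60 genes, 51 had such a row at gene level, out of 14847 named genes in that table. They gave 52 rows, since Wdr36 had 2. At exon level 53 genes had 953 probe sets. Ddx18 and Npm1 had exon-level rows alone, and Wdr43, Wdr75, Utp3, Utp18, Noc2l, Fbl and Dkc1 had no row under this rule. The list was drawn up with results of these arrays known, and Imp4, Ppan and Ddx27 were picked for their difference between the genotypes, so their values are given as a description, with no p of their own, and any count of passing rows or probe sets that includes them describes that choice in part.

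Cerebellum of NMF291–/– females at postnatal day 30 was compared with cerebellum of wild-type females of the same age, with 3 mice and 3 Affymetrix mouse exon arrays for each genotype. NMF291–/– mice carry a 5-nucleotide deletion in Rnu2-8, as the labels name it, 1 of the mouse genes for the U2 small nuclear RNA, which recognises the branch point of introns during splicing. The strain background is not given in the sources used here. Each array was deposited at gene level and at exon level, so the 2 tables are summaries of the same 6 arrays. Values are log2 levels, and a difference is the mean of the NMF291–/– arrays minus the mean of the wild-type arrays. Whole cerebellum was measured, so a changed level per cell and a changed share of the cells that use a gene cannot be told apart.

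Ribosome assembly starts in the nucleolus, where RNA polymerase I transcribes a long precursor of the ribosomal RNAs. The small-subunit processome, built around the U3 small nucleolar RNA, folds and cuts the part of the precursor that becomes the small-subunit rRNA. Another set of factors, many of them helicases, GTPases and scaffold proteins, matures the large-subunit rRNA. Box C/D and box H/ACA small nucleolar ribonucleoproteins guide methylation and pseudouridylation of the rRNA. In mammals many small nucleolar RNAs are cut from introns of protein-coding genes, several of which encode ribosome biogenesis factors themselves.

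The promoters of 5 members are shown, namely the 3 genes whose probe sets are compared below and Nop56 and Nop58, partner proteins whose levels differed in opposite directions. Each window runs from 250 bases before to 50 bases after the annotated start in RefSeq on GRCm38.p6, on the plus strand, 5′ to 3′. The windows lie at chr1:34439579-34439878 for Imp4, chr9:20887925-20888224 for Ppan, chr2:167015063-167015362 for Ddx27, chr2:130274162-130274461 for Nop56 and chr1:59684756-59685055 for Nop58. Capitals mark CACGTG, a form of the E-box. It is a palindrome that reads the same on both strands and is bound by Myc and Max and by other basic helix-loop-helix factors.
Imp4: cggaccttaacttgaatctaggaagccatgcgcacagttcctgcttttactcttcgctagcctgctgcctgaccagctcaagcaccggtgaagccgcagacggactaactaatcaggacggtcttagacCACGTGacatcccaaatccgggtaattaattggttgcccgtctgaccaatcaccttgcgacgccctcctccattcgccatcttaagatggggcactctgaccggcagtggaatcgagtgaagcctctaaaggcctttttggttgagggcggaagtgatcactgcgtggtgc
Ppan: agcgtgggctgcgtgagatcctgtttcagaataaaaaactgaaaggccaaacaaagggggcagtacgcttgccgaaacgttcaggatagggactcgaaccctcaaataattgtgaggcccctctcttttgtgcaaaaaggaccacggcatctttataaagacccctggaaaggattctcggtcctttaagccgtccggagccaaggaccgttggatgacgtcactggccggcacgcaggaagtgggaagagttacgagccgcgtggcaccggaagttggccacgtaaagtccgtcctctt
Ddx27: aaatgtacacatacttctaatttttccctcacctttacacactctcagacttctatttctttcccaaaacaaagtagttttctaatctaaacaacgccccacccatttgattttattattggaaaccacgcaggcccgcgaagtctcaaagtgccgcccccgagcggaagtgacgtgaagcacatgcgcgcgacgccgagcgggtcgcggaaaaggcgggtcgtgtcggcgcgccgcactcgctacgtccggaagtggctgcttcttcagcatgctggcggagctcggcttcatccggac
Nop56: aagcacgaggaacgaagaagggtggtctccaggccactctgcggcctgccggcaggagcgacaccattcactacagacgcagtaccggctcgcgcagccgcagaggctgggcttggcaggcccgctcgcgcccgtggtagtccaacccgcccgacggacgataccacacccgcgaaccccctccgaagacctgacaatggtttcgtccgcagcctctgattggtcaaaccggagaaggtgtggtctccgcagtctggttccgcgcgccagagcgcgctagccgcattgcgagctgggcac
Nop58: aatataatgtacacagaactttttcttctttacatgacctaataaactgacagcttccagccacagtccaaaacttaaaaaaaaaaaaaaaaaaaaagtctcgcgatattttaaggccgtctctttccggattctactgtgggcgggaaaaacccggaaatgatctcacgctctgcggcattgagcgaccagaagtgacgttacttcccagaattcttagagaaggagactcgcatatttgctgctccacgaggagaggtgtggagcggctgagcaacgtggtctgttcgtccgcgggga
The Imp4 window held 1 CACGTG, and the other 4 windows held none. Other forms of the E-box were not counted. Across the list, 9 of 58 member promoters (15.5%) held the motif, against 7.15% of all 32851 promoter windows in the table. Counted by gene, 9 of 52 member genes (17.3%) had it in at least 1 window, against 8.09% of all genes. The Imp4 window is shared in part with Ccdc115, which starts on the minus strand beside it, over 256 bases.

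Imp4, a protein that binds U3 together with Imp3 and Mphosph10 in the small-subunit processome, had the largest difference of the list. Its gene-level values were 11.13, 11.03 and 11.07 in the NMF291–/– arrays, against 9.84, 9.81 and 9.86 in the wild-type arrays. The groups lay far apart compared with the spread within each, and the difference was 1.24, or 2.36-fold. Ppan, the mouse counterpart of yeast Ssf1, a factor of large-subunit rRNA processing, had 9.63, 9.57 and 9.64 in NMF291–/–, against 8.82, 8.80 and 8.74 in wild type, a difference of 0.83. Ddx27, a nucleolar DEAD-box helicase of large-subunit rRNA maturation, had 9.30, 9.29 and 9.32 in NMF291–/–, against 8.64, 8.63 and 8.72 in wild type, a difference of 0.64. In all 3 genes every NMF291–/– array was above every wild-type array.

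The exon level shows how evenly these differences were shared by the probe sets of each gene. A probe set was counted as rising where its difference was at least 0.5 and the genotypes did not overlap, and as staying where its difference lay between -0.25 and 0.25. Over all 229581 probe sets of the table, 2.54% met the first definition and 75.4% the second. Levels of different probe sets depend on their probes and were not set against each other.

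All 12 probe sets of Imp4 met the definition of rising, and none stayed. Their differences ran from 0.69 to 1.44 with a median of 1.24, which is also the gene-level difference. Probe set 4716294, at the top of that range, had 11.21, 11.05 and 11.13 in NMF291–/–, against 9.70, 9.60 and 9.79 in wild type. Probe set 5364684, at the bottom, had 8.42, 8.39 and 8.69 in NMF291–/–, against 7.90, 7.61 and 7.94 in wild type. Imp4 was thus higher over all the parts of the gene that were probed.

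Ppan was split. Of its 13 probe sets, 8 rose by 0.50 to 1.54, 4 stayed between -0.09 and 0.25, and 1 lay between with 0.33. Probe set 5095767 had 9.73, 9.78 and 9.87 in NMF291–/–, against 8.60, 8.17 and 7.99 in wild type, the largest rise. Probe set 4557578 had 9.55, 9.63 and 9.64 in NMF291–/–, against 8.40, 8.23 and 7.90 in wild type. Probe set 5594395 had 11.46, 11.30 and 11.48 in NMF291–/–, against 10.21, 10.17 and 10.07 in wild type. These 3 differed by 1.54, 1.43 and 1.26, each with no overlap between the genotypes. The staying probe sets were not all near the low end of the table. Probe set 5519165 had 11.012, 11.004 and 10.830 in NMF291–/–, against 10.767, 10.760 and 10.756 in wild type, a difference of 0.19. Probe set 4742906 had 10.13, 9.99 and 10.08 in NMF291–/–, against 9.97, 10.07 and 10.03 in wild type, and there the genotypes overlapped. Probe set 4849320 had 6.68, 6.54 and 6.31 in NMF291–/–, against 6.40, 6.60 and 6.79 in wild type, below the 25th percentile of 7.06 over all probe set means. The nearest probe sets on either side of the limits were 4729271, which just counted as rising with 0.50, and 4619879, which just counted as staying with 0.25. In the staying probe sets 4619879 and 5519165 every NMF291–/– array was above every wild-type array, so staying means a small difference and not an absent one.

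Ddx27 lay between these patterns, with 14 of its 23 probe sets rising by 0.58 to 1.04, 6 between at 0.30 to 0.41 and 3 staying. Probe set 4415546 had 9.87, 9.90 and 10.26 in NMF291–/–, against 8.98, 8.94 and 8.99 in wild type, the largest difference of the gene. Probe set 5200053 had 9.77, 9.83 and 9.75 in NMF291–/–, against 9.60, 9.72 and 9.56 in wild type, a difference of 0.16 with no overlap between the genotypes. Probe set 5505464 had 8.18, 8.08 and 8.21 in NMF291–/–, against 8.02, 8.36 and 8.39 in wild type. It was the only Ddx27 probe set below 0, at -0.10, and its genotypes overlapped. The third staying probe set, 4754468, had 8.85, 8.64 and 8.27 in NMF291–/–, against 7.82, 8.51 and 8.70 in wild type, and its spread within each genotype was wider than its difference of 0.24. Where along the transcripts the rising and staying probe sets lie was not analysed here, since no position of a probe set was among the sources used.

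**Figure D1:**
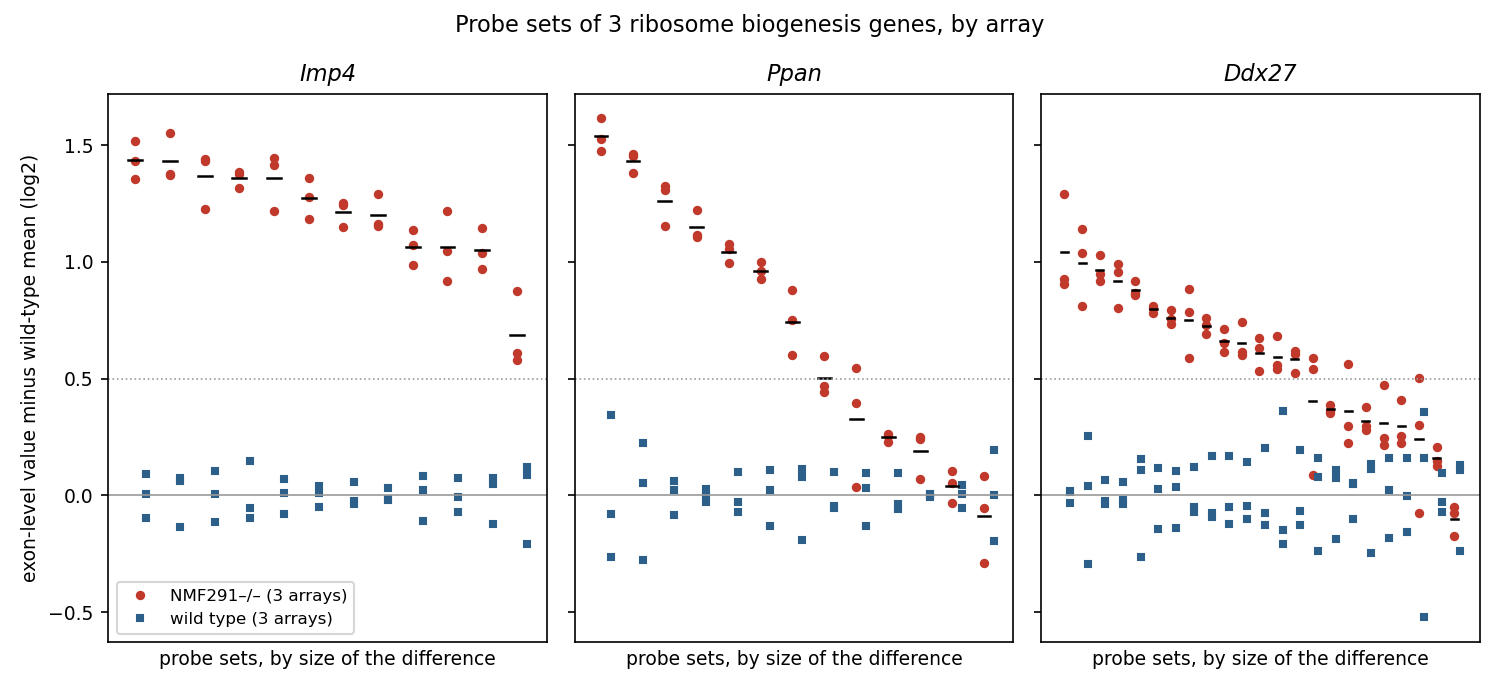
Exon-level value on each array minus the wild-type mean (log2 scale) for every probe set of Imp4, Ppan and Ddx27, ordered by the size of its difference, with circles for the 3 NMF291–/– arrays, squares for the 3 wild-type arrays, bars at the difference and a dotted line at 0.5. All 12 Imp4 probe sets rose, whereas Ppan had 8 rising and 4 staying and Ddx27 had 14 rising and 3 staying.

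Among all members, 20 of the 52 gene-level rows passed as higher in NMF291–/– and 1 as lower, by limma with Benjamini-Hochberg adjustment over the 23332 rows of the table at 0.05. Of all rows, 3.94% passed as higher and 1.81% as lower. The same contrast was in view when the list was made, so nothing is read from the comparison of these shares. Of the member rows, 43 lay above 0 and 9 below, where 55.2% of all rows lay above 0. Their median difference was 0.16, against 0.02 over all rows, and it was 0.14 without Imp4, Ppan and Ddx27. In 32 rows every NMF291–/– array was above every wild-type array, and in 4 rows below, where 18.9% and 11.1% of all rows showed no overlap in those directions. The count of passing rows depended on having all 6 arrays. Leaving out mutant replicate 1 or 3, or wild-type replicate 2 or 3, brought it to 3 rows, those of Imp4, Ppan and Ddx27. No other member passed as higher in those fits. The count was 4, with Nop2 added, when mutant replicate 2 was left out and 9 when wild-type replicate 1 was. Over all 23332 rows, 50 to 356 passed as higher with 1 array left out and 26 to 140 as lower. The member rows passing as lower fell to 0 whenever 1 array was left out. In those fits 26 to 30 of the 52 member rows had an unadjusted p under 0.05, as did 4382 to 5369 of all 23332 rows. With all arrays 32 had one, where 23.0% of all rows did.

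**Figure D2:**
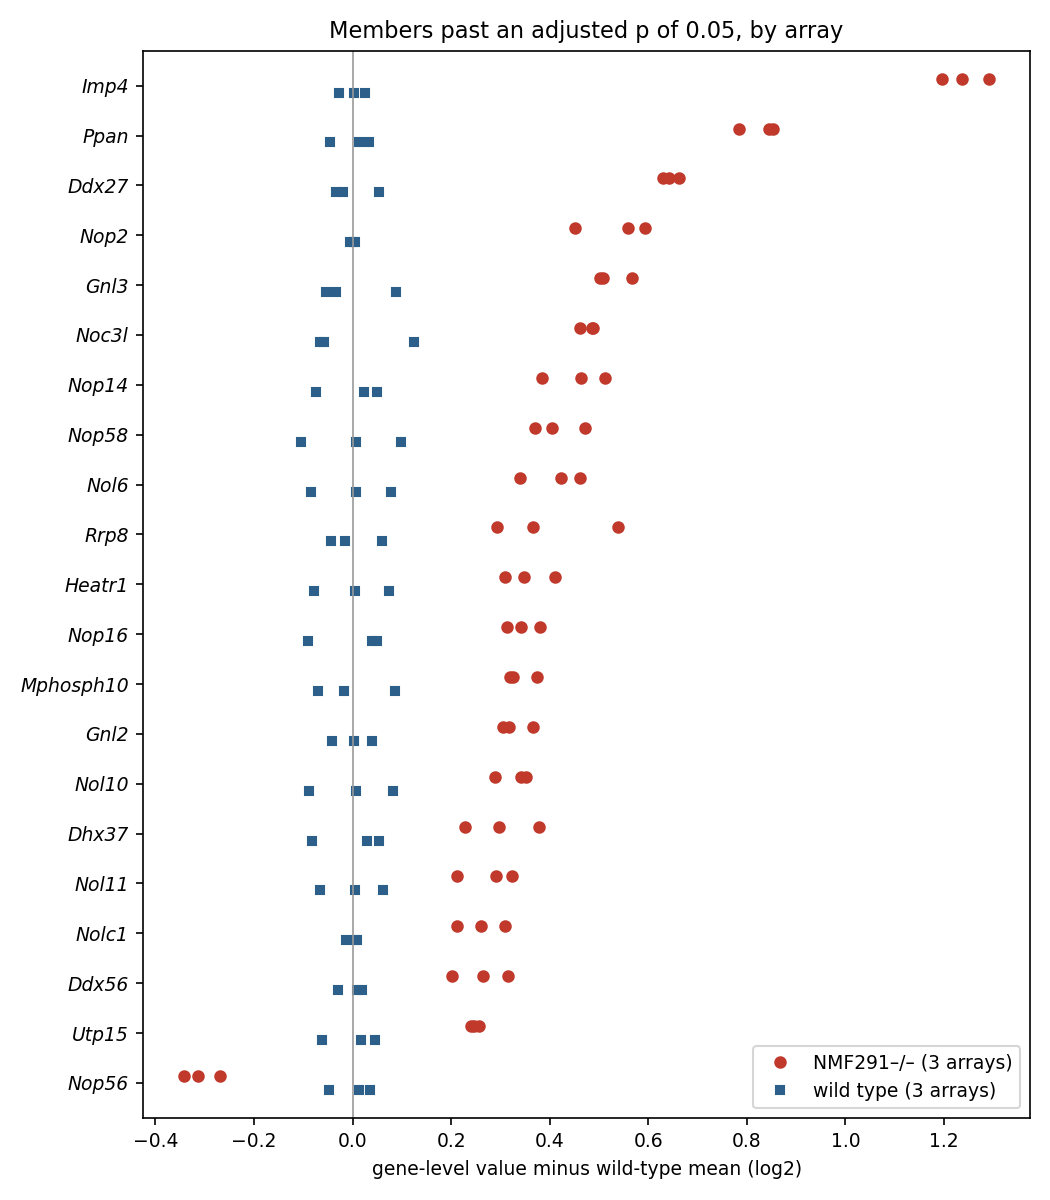
Gene-level value of each of the 21 member rows that passed, on each array, minus the gene's wild-type mean (log2 scale, 1 line per gene, circles for the 3 NMF291–/– arrays and squares for the 3 wild-type arrays). Imp4, Ppan and Ddx27 have the highest NMF291–/– values, and Nop56 is the 1 row that passed as lower.

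In the small-subunit processome 9 of 19 rows passed as higher and none as lower, with differences from -0.16 to 1.24. Besides Imp4 these were Nop14, Nol6, Mphosph10, Heatr1, Nol10, Utp15, Nol11 and Dhx37. Nop14, a scaffold of the processome, had 8.53, 8.66 and 8.61 in NMF291–/–, against 8.20, 8.17 and 8.07 in wild type, and differed by 0.45 ± 0.06 (SE, 3 arrays per genotype, adjusted p = 0.0174). Nol6, the counterpart of yeast Utp22, had 10.17, 10.29 and 10.25 in NMF291–/–, against 9.74, 9.91 and 9.84 in wild type (0.41 ± 0.06, adjusted p = 0.0260). Both were higher on every NMF291–/– array than on any wild-type array. Mphosph10, the protein that holds Imp3 and Imp4 in their complex, had 7.65, 7.70 and 7.65 in NMF291–/–, against 7.41, 7.31 and 7.26 in wild type (0.34 ± 0.05, adjusted p = 0.0297). The third protein of that complex, Imp3, did not pass. It had 8.854, 8.974 and 8.902 in NMF291–/–, against 9.005, 9.143 and 9.052 in wild type, a difference of -0.16 (adjusted p = 0.179).

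Heatr1, the counterpart of yeast Utp10, had 8.37, 8.41 and 8.47 in NMF291–/–, against 8.13, 8.06 and 7.98 in wild type (0.36 ± 0.06, adjusted p = 0.0298). Nol10, the counterpart of yeast Enp2, differed by 0.33 (adjusted p = 0.0351). Utp15 and Nol11, members of the subcomplex that joins the pre-rRNA first, differed by 0.25 and 0.28 (adjusted p = 0.0397 and 0.0472). Dhx37, the helicase counterpart of yeast Dhr1 that displaces U3, had 9.04, 8.97 and 9.12 in NMF291–/–, against 8.66, 8.77 and 8.80 in wild type (0.30 ± 0.06, adjusted p = 0.0497). It lay closest to the threshold of the rows that passed, and Rrp1 (adjusted p = 0.0519) lay closest among those that did not. The processome rows that did not pass were those of Utp6, Imp3, Ddx10, Ddx52, Rrp9, Utp20, Wdr3, Noc4l and both rows of Wdr36, whose differences ran from -0.16 to 0.17. None of the 3 rows of late small-subunit factors passed. Tsr1, a GTPase-like factor of pre-40S particles, had 8.36, 8.29 and 8.27 in NMF291–/–, against 8.08, 8.07 and 7.90 in wild type, with no overlap and a difference of 0.29 (adjusted p = 0.0626). Ltv1 and Bysl, which act in export and maturation of the small subunit, had differences of -0.09 and 0.04.

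Of the 20 rows of large-subunit factors, 9 passed as higher and none as lower. Nop2, a methyltransferase of the large-subunit rRNA, had 9.42, 9.31 and 9.45 in NMF291–/–, against 8.85, 8.86 and 8.86 in wild type, a difference of 0.53 ± 0.05 (adjusted p = 0.0106). Gnl3, or nucleostemin, a nucleolar GTPase, had 9.01, 9.07 and 9.02 in NMF291–/–, against 8.59, 8.45 and 8.47 in wild type (0.53 ± 0.05, adjusted p = 0.0124). These were the largest differences of the list after those of Imp4, Ppan and Ddx27. Noc3l, whose yeast counterpart Noc3 joins early large-subunit precursors, had 8.969, 8.996 and 8.993 in NMF291–/–, against 8.632, 8.449 and 8.442 in wild type (0.48 ± 0.06, adjusted p = 0.0198). Gnl2, a GTPase of large-subunit maturation, had 9.65, 9.70 and 9.64 in NMF291–/–, against 9.37, 9.34 and 9.29 in wild type (0.33 ± 0.04, adjusted p = 0.0207). In each of these 4 genes the genotypes were apart on all arrays.

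Rrp8, which methylates an adenine of the large-subunit rRNA, differed by 0.40 ± 0.07 (adjusted p = 0.0406), with 9.87, 9.94 and 10.12 in NMF291–/–, against 9.64, 9.56 and 9.54 in wild type. Nop16 differed by 0.34 (adjusted p = 0.0288) and the helicase Ddx56 by 0.26 (adjusted p = 0.0381). Rrp1, Nip7 and Ddx51 were higher on every NMF291–/– array than on any wild-type array and did not pass, with differences of 0.19, 0.20 and 0.17. Pes1, Bop1 and Wdr12, the 3 proteins of the PeBoW complex of large-subunit maturation, had differences of 0.07, -0.02 and -0.14, and none passed. At exon level the medians over their probe sets were 0.24, -0.02 and -0.05, and no probe set of the 3 genes passed. Wdr12 was the 1 large-subunit row whose NMF291–/– arrays all lay below the wild-type arrays.

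Of the proteins that carry small nucleolar RNAs, those of box C/D particles passed in opposite directions. Nop56 and Nop58 are the paired core proteins of box C/D particles, which also hold the methyltransferase fibrillarin. Nop58 had 8.57, 8.64 and 8.54 in NMF291–/–, against 8.17, 8.27 and 8.06 in wild type, a difference of 0.42 ± 0.07 (adjusted p = 0.0287). Nop56 had 10.16, 10.19 and 10.23 in NMF291–/–, against 10.54, 10.45 and 10.52 in wild type, a difference of -0.31 ± 0.05 (adjusted p = 0.0260). The Nop56 level in NMF291–/– was thus 0.807 of that in wild type, and the genotypes did not overlap in either gene. The exon level ran the same way, since all 12 Nop56 probe sets lay below 0, from -0.41 to -0.04, and all 17 Nop58 probe sets lay above 0, from 0.07 to 1.01. No Nop56 probe set passed on its own at exon level, and 1 Nop58 probe set did. Leaving out any 1 array kept both directions and left neither gene past the threshold.

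**Figure D3:**
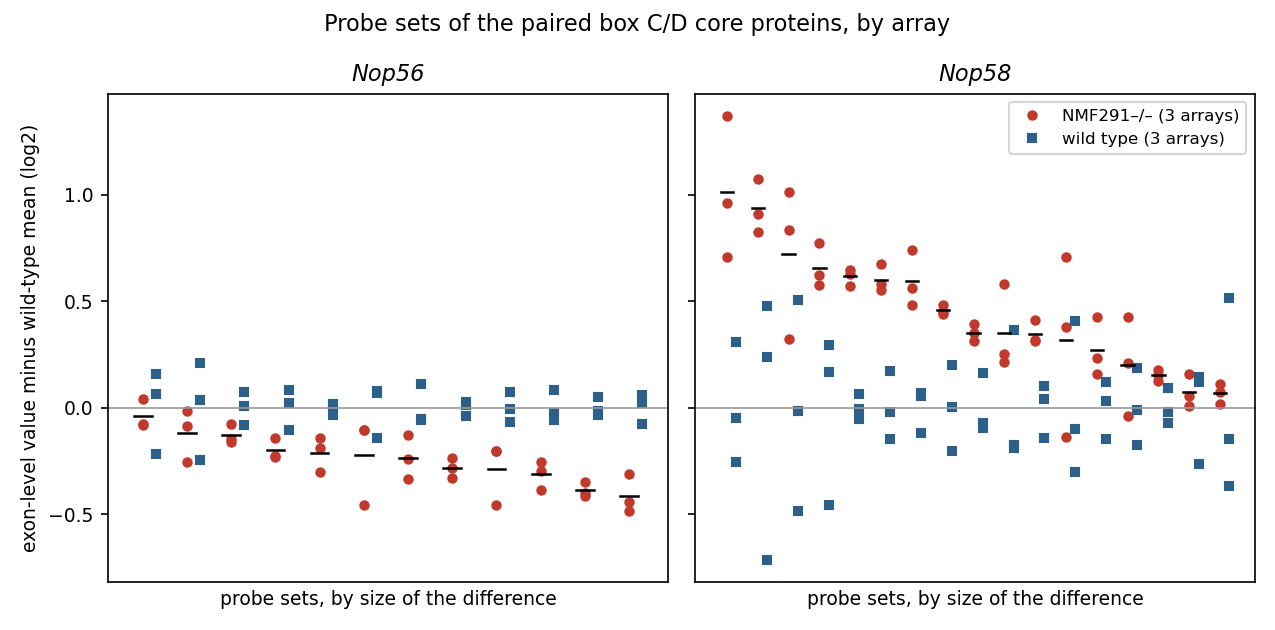
Exon-level value on each array minus the wild-type mean (log2 scale) for every probe set of Nop56 and Nop58, with circles for the 3 NMF291–/– arrays, squares for the 3 wild-type arrays and bars at the difference. The bars of all 12 Nop56 probe sets lie below 0 and all 17 Nop58 probe sets lie above 0.

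None of the 3 rows of box H/ACA proteins passed. Gar1 had 8.40, 8.39 and 8.39 in NMF291–/–, against 8.16, 8.24 and 8.07 in wild type, a difference of 0.24 (adjusted p = 0.0611). Its partners Nop10 and Nhp2 had differences of -0.05 and -0.01, and their genotypes overlapped. Nolc1, a nucleolar phosphoprotein that binds both kinds of small nucleolar ribonucleoprotein, had 10.56, 10.61 and 10.66 in NMF291–/–, against 10.35, 10.35 and 10.33 in wild type (0.26 ± 0.04, adjusted p = 0.0330). Nucleolin (Ncl) and the helicase Ddx21, which act on rRNA transcription and early processing, had differences of 0.10 and 0.04 and did not pass. The polymerase genes among the members did not pass either. Polr1a and Polr1b, which encode the largest subunits of RNA polymerase I, had differences of 0.02 and 0.07.

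**Figure D4:**
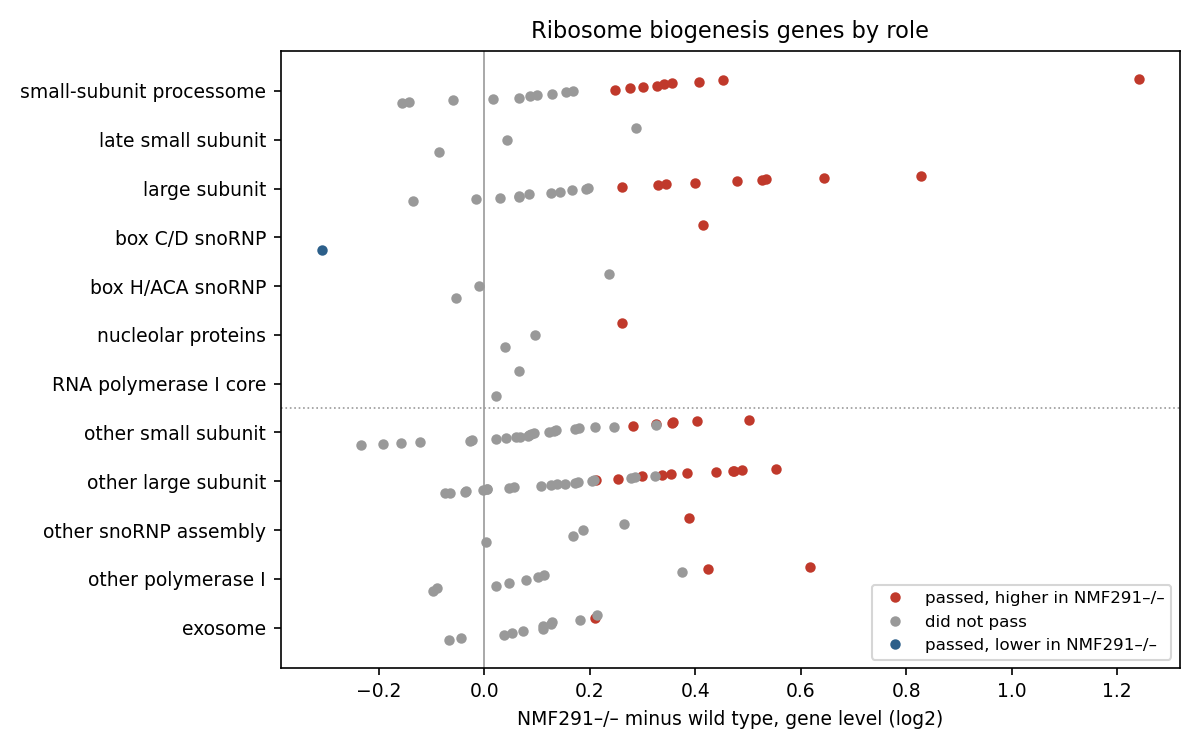
Gene-level difference, NMF291–/– minus wild type (log2 scale), of each member row grouped by role above the dotted line and of the other pathway rows below it, with red for rows that passed limma's test as higher, blue for lower and grey for the rest. Passing member rows lie mostly among the small-subunit processome (9 of 19) and the large-subunit factors (9 of 20), and no member row passed among the box H/ACA, late small-subunit and RNA polymerase I rows.

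In RefSeq, 6 of the members with a gene-level row have annotated small nucleolar RNA genes inside them: Ppan, Gnl3, Nop58, Nop56, Tsr1 and Ncl. Of these, 3 passed as higher (Ppan, Gnl3 and Nop58), 1 as lower (Nop56) and 2 did not pass. The levels of the small nucleolar RNAs themselves were not analysed here. Chromosome 11, which holds the U2 gene that RefSeq lists as Rnu2-10 with the synonym nmf291, carries 7 of the member rows, of which 2 passed as higher (Ddx56 and Nol11). Of the 7 member rows whose genes had CACGTG in a promoter window 3 passed as higher, and of the 38 whose windows lacked it 15 did. Of all rows 3.94% passed as higher. These counts are read no further, since the list was made with this contrast in view.

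At exon level the members' probe sets lay mostly above 0. Of the 953 probe sets, 753 lay above 0 and 200 below, with a median of 0.20, where 53.3% of all probe sets lay above 0 with a median of 0.02. Past an adjusted p of 0.05 in limma over the whole exon-level table were 46 member probe sets as higher and none as lower, with 0.603% and 0.402% of all probe sets past it in those directions. Imp4, Ppan and Ddx27 held 27 of the 46. The other 19 were spread over 10 genes, among them Nop2 with 6 and Gnl3, Nol6, Nop14 and Dhx37 with 2 each. In 16 genes every probe set lay above 0, Heatr1 with all 52 among them, and in 2 genes, Nop56 and Imp3, every probe set lay below 0. Of the genes measured at exon level alone, the helicase gene Ddx18 had all 14 probe sets above 0, from 0.03 to 0.27, and Npm1, which encodes nucleophosmin, had 4 of 12 above 0, from -0.26 to 0.09, and no probe set of either passed. With any 1 array left out no probe set of the whole table passed in limma, and so no member probe set did. In those fits 297 to 358 of the 953 had an unadjusted p under 0.05, as did 31235 to 39930 of all 229581 probe sets.

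**Figure D5:**
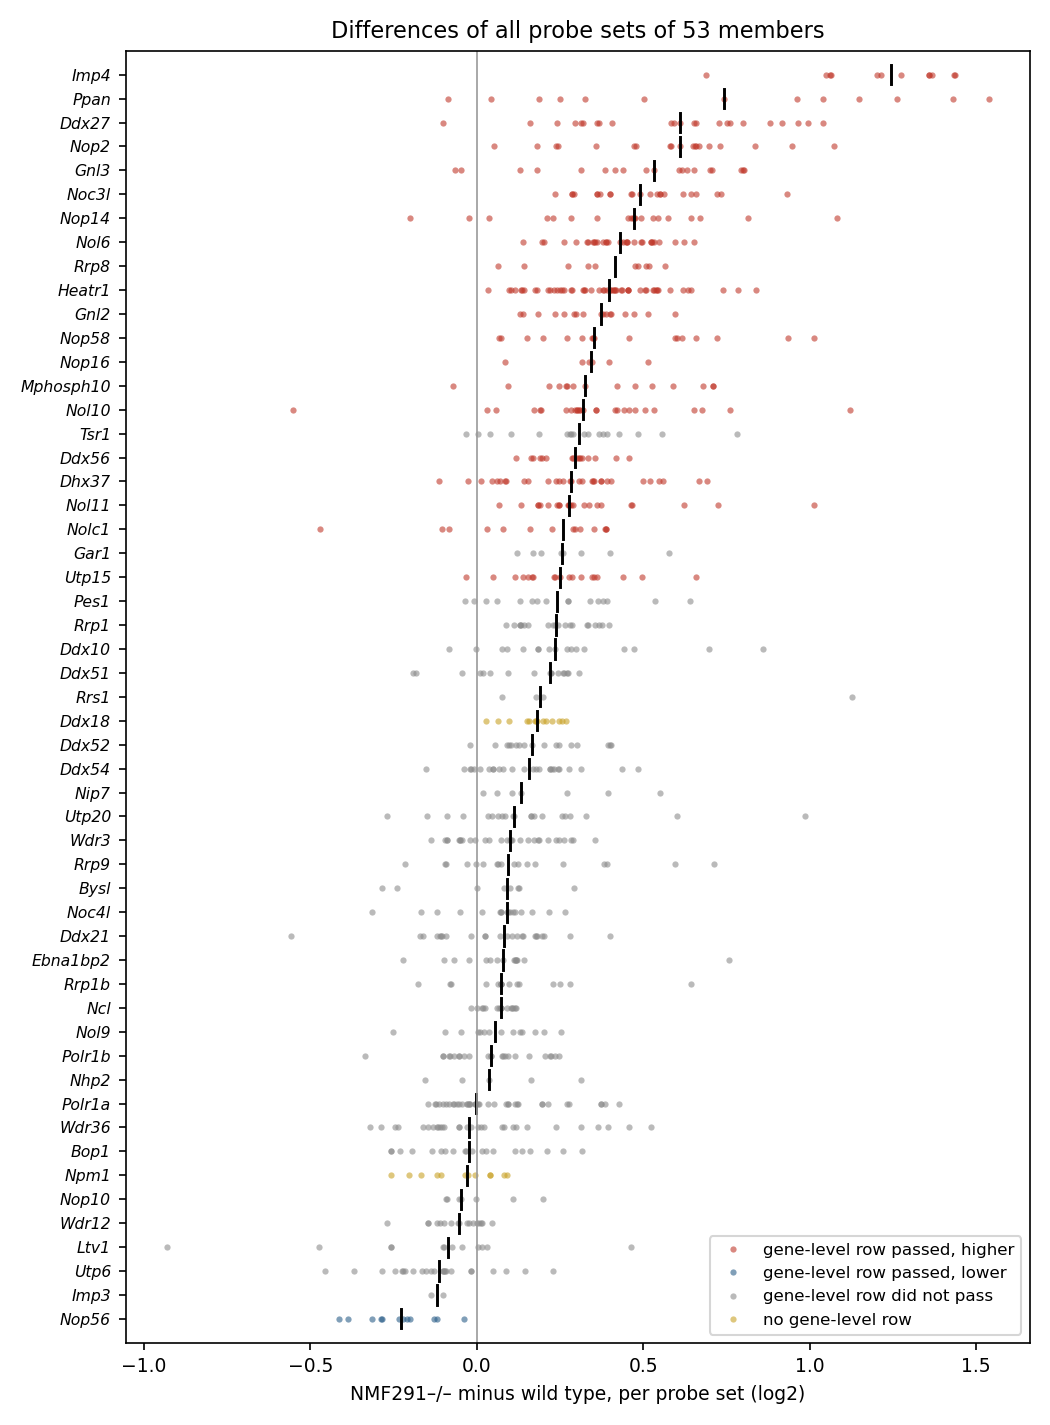
Difference, NMF291–/– minus wild type (log2 scale), of the 953 exon-level probe sets (points) of 53 member genes, ordered by their median (bar) and coloured by whether the gene-level row passed as higher (red), as lower (blue), did not pass (grey) or was missing (yellow). Of the 953, 753 lie above 0, 46 passed limma's test as higher and none as lower.

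Exon usage was measured as a probe set minus the median of its gene's probe sets on the same array. In 32 member genes 552 probe sets were bright enough to enter, and none passed in limma, where 0.00837% of the 107553 probe sets in the whole test did. Of the 552, 97 had an unadjusted p under 0.05 in limma, where 11.2% of all probe sets tested had one. The 97 include probe sets of Imp4, Ppan and Ddx27, picked for this contrast, so nothing is read from that share. The diffSplice test of limma passed 17 of the 552 in 7 genes, where it passed 1.26% of all, so the count depended on the test and its settings. Outside Imp4, Ppan and Ddx27 those were 6 probe sets in Nolc1, Nop2, Gnl3 and Rrp9, named here after their values were seen. In Nolc1, probe set 4361211 had 8.07, 7.87 and 7.69 in NMF291–/–, against 8.32, 8.52 and 8.19 in wild type, while the gene as a whole was higher. In Nop2, probe set 5468225 had 10.750, 10.473 and 10.699 in NMF291–/–, against 9.498, 9.528 and 9.680 in wild type, a difference of 1.07. Probe set 4682912 of the same gene had 7.59, 7.53 and 7.14 in NMF291–/–, against 7.27, 7.31 and 7.53 in wild type, and overlapped. Gnl3 likewise held 2 overlapping probe sets, 4926274 and 4792567, with differences of -0.07 and -0.05 beside a gene-level difference of 0.53. In Rrp9, whose gene-level row did not pass, probe set 5442113 differed by 0.71.

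Other genes of the pathway, outside the 60 and listed by function, were counted in the same fit. Of 105 listed genes 84 had a row, 86 rows in all. In limma 21 of them passed as higher and none as lower, where 3.94% and 1.81% of all rows passed. An unadjusted p under 0.05 in either direction was held by 43, where 23.0% of all rows had one. This list too was made with earlier results of these arrays known, so nothing is read from the comparison of these shares. By role, 11 of 31 rows of other large-subunit factors passed as higher, 6 of 28 of other small-subunit factors, 2 of 10 of RNA polymerase I and its factors, 1 of 5 of small nucleolar ribonucleoprotein assembly and 1 of 12 of the exosome. Mybbp1a, a nucleolar Myb-binding protein, had 9.43, 9.41 and 9.47 in NMF291–/–, against 8.87, 8.91 and 8.88 in wild type, a difference of 0.55 (adjusted p = 0.00693). Znrd1, a subunit of RNA polymerase I, differed by 0.62 (adjusted p = 0.0127), and Ubtf, the factor that opens rRNA gene promoters to the polymerase, by 0.42 (adjusted p = 0.0123). Utp25, Wdr74 and Rpf1 differed by 0.50, 0.49 and 0.34. Here too the count depended on every array. It came to 13 when wild-type replicate 1 was left out, to 1 when mutant replicate 1 or wild-type replicate 3 was, and to 2 when any of the others was.

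Markers of other cells moved with the genotype as well. The mean log2 level of 12 microglial markers was 8.58, 9.16 and 8.75 in NMF291–/–, against 7.96, 7.94 and 7.87 in wild type, and 8 of the 12 passed as higher, C1qb, Cd68, Tyrobp and Cx3cr1 among them. The mean of 6 astrocyte markers was 10.79, 11.05 and 10.92 in NMF291–/–, against 10.66, 10.60 and 10.57 in wild type, with Gfap alone passing as higher. Gfap differed by 1.48 and Aqp4 by 0.33, while Gja1, Slc1a3, S100b and Aldh1l1 lay between -0.02 and 0.02. Among 7 markers of granule neurons, the main cells of the cerebellum, Gabra6 alone passed, as lower. The means were 12.02, 11.97 and 12.05 in NMF291–/–, against 12.13, 12.06 and 12.06 in wild type. Gabra6 differed by -0.46, Zic1 by -0.15 and Zic2 by 0.22, and the other granule neuron markers lay between -0.07 and 0.04. No marker of Purkinje cells (0 of 4), oligodendrocytes (0 of 4), choroid plexus (0 of 6) or proliferating cells (0 of 4) passed. The 4 proliferation markers averaged 5.76, 5.76 and 5.85 in NMF291–/–, against 5.67, 5.65 and 5.73 in wild type. These averages lay below the 25th percentile of gene-level row means, 6.61, though Cdk1 alone averaged 6.77 in NMF291–/–. Cdk1 and Top2a differed by 0.21 and 0.20 with no overlap, where 18.9% of all rows showed none in that direction. Mki67 and Birc5 differed by 0.01 and -0.005 and overlapped. The choroid plexus mean was low on 1 array, with 9.54, 9.63 and 8.42 in NMF291–/–, against 9.73, 9.53 and 9.61 in wild type. Set beside these, the median of the members' differences from the wild-type mean was 0.13, 0.17 and 0.20 on the NMF291–/– arrays and 0.02, 0.01 and -0.03 on the wild-type arrays. The part of these cell types in the members' differences was not tested.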

How the data were processed

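Total RNA of cerebellum from 3 NMF291–/– and 3 wild-type mice was hybridised to exon arrays. The deposited tables hold log2 values, taken as log2 from their range of 2.32 to 14.1 (gene level) and 14.5 (exon level). The build was mm8, per the submitters' processing notes. How background, normalization and summary were handled is not given in the sources used here. All 6 columns of each table were used, and the number of arrays limits the precision.

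Rows were named where the platform annotation gave 1 symbol (14996 of 23332 gene-level rows, 209279 of 229581 probe sets), with older symbols updated through RefSeq names. The 2 levels were tested apart with limma 3.58.1 in R 4.3.3 (two-sided, no covariate, no filter on low values, Benjamini-Hochberg over the whole table). Exon usage took genes with at least 3 probe sets with a gene median no lower than the 50th percentile, and probe sets no lower than the 25th. The index is exactly 0 for a gene's median probe set. The scripts were tested on simulated data. Alternatives were another threshold, other scalings, limma settings, filters, the replicate block and leaving out each array.

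Members and lists were chosen with earlier results of these data known. The text names Imp4, Ppan and Ddx27, members whose gene-level row passed, the 3 with the smallest p in each role, and the 6 other pathway genes with the smallest p. Imp3, Pes1, Bop1, Wdr12 and the members named as not passing were named for their complexes or for completeness after their values were seen. Same-numbered arrays of the 2 genotypes did not deviate together (correlations -0.04 to 0.03), so the numbers were not taken as pairs. Array medians were 8.05 to 8.09 in NMF291–/– and 8.00 to 8.03 in wild type at gene level. Correlations at gene level were 0.988 to 0.991 between genotypes and 0.992 to 0.994 within one.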

Additional observations from a re-analysis of the deposited data

How the results depend on the processing

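None of the results recomputed (the counts, the median, the rising probe sets and the members that passed) turned round in direction under the alternatives run. With the array number as a replicate block, 0 member rows passed as higher and 0 as lower at gene level. An unadjusted p under 0.05 in limma was held by 27 of the 52, as it was by 4787 of all 23332 rows. With that block 0 member probe sets passed at exon level and 0 other pathway rows. The same fit passed 0 of all 23332 gene-level rows and 0 of all 229581 probe sets. The array numbers mark no shared litter or batch. With each array left out in turn the member rows passing as higher numbered 3 to 9 and those lower 0 to 0. The other pathway rows numbered 1 to 13 and the member probe sets 0 to 0. Over the whole tables, 50 to 356 gene-level rows passed as higher and 26 to 140 as lower, and no probe set passed. Scaling mattered for the table as a whole. In limma 920 gene-level rows passed as higher and 422 as lower on the deposited scale, 680 and 595 after quantile normalization, and 529 and 600 after median centring. The members' median difference of 0.16 became 0.12 after quantile normalization and 0.11 after median centring. The median over all gene-level rows moved down as well, from 0.02 to -0.02 and -0.03. Median centring left 14 member rows higher, without Ddx56, Dhx37, Nol11, Nolc1, Rrp8 and Utp15, and quantile normalization left 19, without Dhx37 and Nol11 and with Rrp1, with Nop56 lower under both. A threshold of 0.1 in place of 0.05 gave 34 other pathway rows higher and 1 lower, 120 member probe sets higher and 2 lower, and 3 lower in exon usage. Over the whole tables it gave 1918 gene-level rows higher and 870 lower. It also gave 4946 probe sets higher and 3242 lower, and 50 lower in usage. Without low values, 1 other pathway row was lower, 132 member probe sets were higher and 3 lower, and 3 were lower in usage. Of all features then tested, 668 of 17499 rows were lower, and 28 of 80665 probe sets were lower in usage. At exon level 5170 of 172186 probe sets were higher and 3353 lower. Transcript clusters alone gave 1 other pathway row lower, where 695 of all 16755 were. Trend and robust eBayes gave 196 member probe sets higher, 7 lower and 3 lower in usage. Among all probe sets it gave 9249 higher, 6312 lower and 108 lower in usage. Measured against the other probe sets of the gene, usage passed 1 member probe set higher and 4 lower, and diffSplice passed 7 higher and 10 lower. Of all 107553 probe sets these passed 88 higher and 73 lower, and 707 higher and 645 lower. Leaving out Imp4, Ppan and Ddx27, chosen after seeing the data, gave 17 rows higher and 1 lower. The cause of these changes was not tested.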

Other observations

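Genes that RefSeq places next to Imp4, Ppan and Ddx27 were looked up for their own values. Ccdc115, which shares 256 bases of promoter window with Imp4, had 7.98, 7.89 and 8.22 in NMF291–/–, against 7.73, 7.63 and 7.81 in wild type, a difference of 0.30 that did not pass in limma (adjusted p = 0.134). Ptpn18, on the other side of Imp4, had a difference of 0.05. Angptl6, beside Ppan, had a difference of 0.04, and Stau1, beside Ddx27, had a difference of 0.08, and neither passed. Eif3g and Znfx1, the remaining neighbours, had no named gene-level row.

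Ddx10, a helicase of the small-subunit processome named here after its values were seen, had a gene-level difference of 0.17 that did not pass. Its probe set 4997156 had 6.83, 6.84 and 6.92 in NMF291–/–, against 6.06, 6.32 and 6.11 in wild type, and passed at exon level with a difference of 0.70 ± 0.10 (SE, limma adjusted p = 0.0377). All of these values lay below the 25th percentile of 7.06 over all probe set means. The other 16 probe sets of Ddx10 did not pass.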
